A study of Homo sapiens with 8 samples.

Results

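Integrins, the laminin chains and 7 other matrix glycoproteins were followed in U87 cells, an established human glioblastoma line, treated with AsiDNA, belinostat or both. The set was chosen by gene name: every protein-coding integrin α and β subunit and laminin α, β and γ chain whose symbol matched the family's pattern, together with FN1, FBN1, FBN2, TNC, VTN, SPARC and THBS1. It held 45 of the 58884 gene identifiers in the count table: 18 integrin α subunits, 8 integrin β subunits, 12 laminin chains and 7 matrix glycoproteins. Enough counts for a test were found for 32 of them, namely 11 integrin α, 5 integrin β, 10 laminin and 6 matrix glycoprotein genes.

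The cells fell into 4 groups of 2 libraries: AsiDNA with belinostat (called the combination here), belinostat, AsiDNA, and the solvent DMSO. Belinostat, a histone deacetylase inhibitor, was given at 1 µM for 24 h. AsiDNA is a short double-stranded DNA that imitates a broken end and draws off repair enzymes; the sources used here give neither its dose nor its duration. The protocols name MTU87 and LTAU87 cells without tying either name to a group, and all cells grew in DMEM with 10% serum and 1% antibiotics. All groups are 1 cell line in culture, so neighbouring cells and vessels are absent, and serum can itself supply fibronectin and vitronectin protein that RNA does not show. The labels do not say whether the 2 libraries of a group came from separate cultures, so the p-values reflect the spread among these samples alone, and that spread may be technical.

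Integrins are transmembrane receptors made of 1 α and 1 β subunit, and the pair decides which matrix protein is bound. Laminins are trimers of an α, a β and a γ chain that form the sheet of the basement membrane, while fibronectin and fibrillins form fibrils in the looser matrix. In glioma, invading cells move along laminin-rich vessel walls and through a matrix that is rich in fibronectin, tenascin-C and hyaluronan.

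Levels are given as CPM, counts scaled to a fixed total per library with TMM factors (trimmed mean of M-values), for library 1 and library 2 of each group in that order. The libraries held 6057394 to 9699637 counts, so that 3 counts equalled 0.309 to 0.495 CPM before TMM scaling, and such floors cover counting error only. A gene was called higher or lower at an adjusted p under 0.05 in edgeR's quasi-likelihood test with Benjamini-Hochberg adjustment over all 14741 tested genes, and fold changes are on the log2 scale ± SE. The 2 DMSO libraries stood apart from each other: 11.2% of 8287 well-measured genes differed between them by more than 1.5-fold, against 0.652% in the combination, 0.736% in belinostat and 0.302% in AsiDNA. Among 21 members in that count, ITGA7 was the 1 that differed so in DMSO. In bulk RNA, a change in the number of cells that hold a transcript and a change in RNA per cell cannot be told apart.

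The label of a brain tumour line was checked against marker lists. VIM, a filament protein of mesenchymal and glial cells, ranged over the libraries from 1372 to 5973 CPM and the hyaluronan receptor CD44 from 1422 to 2523 CPM, whereas GFAP, the filament of mature astrocytes, reached at most 0.487 CPM. Of 10 glioma or astrocyte markers 6 were tested. S100B, AQP4 and ALDH1L1 had 4, 2 and 8 counts in all libraries. For belinostat against DMSO and the combination against AsiDNA, VIM was lower at -1.66 ± 0.19 and -0.57 ± 0.18. Higher in both were NES (2.60 ± 0.21 and 3.04 ± 0.21), SOX9 (1.28 ± 0.26 and 1.24 ± 0.25) and CHI3L1 (3.71 ± 0.41 and 3.04 ± 0.50). SLC1A3 was called in neither, and CD44 was higher only for the combination against AsiDNA (0.65 ± 0.15). Of 10 leukocyte markers, CD3E, AIF1 and LYZ had 0 counts and PTPRC and SPI1 had 1 count each in all libraries together, and 3 passed the filter, CSF1R, CORO1A and CD68. CSF1R, a growth factor receptor of macrophages, had 2.34 and 2.43 CPM in the combination, 2.82 and 3.22 CPM in belinostat, 12.9 and 13.5 CPM in AsiDNA and 17.1 and 17.8 CPM in DMSO, with log2 fold changes of -2.53 ± 0.23 for belinostat against DMSO (adjusted p = 1.2e-06) and -2.46 ± 0.25 for the combination against AsiDNA (adjusted p = 5.31e-06). CORO1A, an actin regulator of leukocytes, had 6.34 and 6.53 CPM in the combination, 4.57 and 4.69 CPM in belinostat, 0.845 and 1.31 CPM in AsiDNA and 0.585 and 1.01 CPM in DMSO, with 2.52 ± 0.41 for belinostat against DMSO (adjusted p = 0.000177) and 2.58 ± 0.41 for the combination against AsiDNA (adjusted p = 0.000196). CD68, a lysosomal protein of macrophages, had 3.504 and 3.71 CPM in the combination, 1.86 and 2.35 CPM in belinostat, 2.17 and 2.33 CPM in AsiDNA and 1.56 and 2.22 CPM in DMSO, with 0.17 ± 0.41 for belinostat against DMSO (adjusted p = 0.739) and 0.68 ± 0.39 for the combination against AsiDNA (adjusted p = 0.183). CSF1R was lower and CORO1A higher with belinostat, and CD68 was not called. The 6 neuron markers summed to 127 to 133 CPM in the combination, 161 to 170 CPM in belinostat, 54.6 to 58.9 CPM in AsiDNA and 56.1 to 73.7 CPM in DMSO, with STMN2 at 0 and RBFOX3 at 1 count; of the 4 tested, SNAP25, MAP2 and SYT1 were higher in both comparisons and TUBB3 was called in neither. The 7 endothelial markers summed to 17.7 to 19.6 CPM in the combination, 22.7 to 27.1 CPM in belinostat, 14.1 CPM in both AsiDNA libraries and 9.75 to 12.4 CPM in DMSO, and CDH5, CLDN5 and EGFL7 were at 0. Of the 3 tested endothelial markers only PECAM1 was higher, at 1.98 ± 0.23 for belinostat against DMSO (adjusted p = 9.75e-06) and 1.62 ± 0.25 for the combination against AsiDNA (adjusted p = 0.000152). KDR was at -0.82 ± 0.38 for belinostat against DMSO (adjusted p = 0.0769) and -1.158 ± 0.36 for the combination against AsiDNA (adjusted p = 0.0178), and TEK at -0.72 ± 0.69 for belinostat against DMSO (adjusted p = 0.387) and -2.62 ± 0.85 for the combination against AsiDNA (adjusted p = 0.0238). All 3 sums differed between groups with and without belinostat, as did many members, and their part in the members' results was not tested.

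Promoter windows, from 250 bases before to 50 bases after the annotated start, were found in RefSeq (GRCh38.p14) for 33 of the 45 members, and 5 are printed because the genes changed with belinostat whether or not AsiDNA was present. FN1, ITGB1, ITGAV and LAMA5 were higher there and FBN1 was lower; the 5 were chosen after their values were seen. Each is read 5′ to 3′ on the gene's strand from the first start listed, and capitals mark the GC box GGGCGG, the cAMP response element TGACGTCA and the CCAAT box, each searched on both strands. The AP-1 motif TGANTCA was searched too on both strands. So were the letters TATAAA of the TATA box. The E box was searched as CACGTG. None of these 3 was in any of the 5 windows.
FN1 promoter (chr2:215436019-215436318, minus strand): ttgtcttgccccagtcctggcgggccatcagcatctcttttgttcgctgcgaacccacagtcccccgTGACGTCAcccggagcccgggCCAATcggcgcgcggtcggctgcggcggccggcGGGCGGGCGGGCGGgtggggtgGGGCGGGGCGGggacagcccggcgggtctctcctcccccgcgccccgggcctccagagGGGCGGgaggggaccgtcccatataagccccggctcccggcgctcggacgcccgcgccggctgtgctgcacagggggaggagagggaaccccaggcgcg
ITGB1 promoter (chr10:32958181-32958480, minus strand): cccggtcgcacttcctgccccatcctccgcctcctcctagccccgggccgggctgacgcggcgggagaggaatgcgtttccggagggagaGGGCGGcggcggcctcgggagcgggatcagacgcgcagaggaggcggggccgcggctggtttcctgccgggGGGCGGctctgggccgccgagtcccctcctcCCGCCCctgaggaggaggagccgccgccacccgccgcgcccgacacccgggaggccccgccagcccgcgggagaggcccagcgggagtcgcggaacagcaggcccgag
ITGAV promoter (chr2:186589806-186590105, plus strand): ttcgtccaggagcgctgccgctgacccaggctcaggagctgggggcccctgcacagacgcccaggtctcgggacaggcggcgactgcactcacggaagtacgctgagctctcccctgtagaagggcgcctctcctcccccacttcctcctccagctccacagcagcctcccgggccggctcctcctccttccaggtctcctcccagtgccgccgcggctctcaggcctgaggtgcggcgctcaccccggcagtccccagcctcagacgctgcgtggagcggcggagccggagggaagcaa
LAMA5 promoter (chr20:62367263-62367562, minus strand): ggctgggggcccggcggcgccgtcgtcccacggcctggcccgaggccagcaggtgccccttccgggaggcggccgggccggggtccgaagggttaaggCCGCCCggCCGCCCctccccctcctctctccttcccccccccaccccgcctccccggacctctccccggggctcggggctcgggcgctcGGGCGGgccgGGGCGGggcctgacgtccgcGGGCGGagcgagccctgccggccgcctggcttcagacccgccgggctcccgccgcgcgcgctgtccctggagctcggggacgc
FBN1 promoter (chr15:48644921-48645220, minus strand): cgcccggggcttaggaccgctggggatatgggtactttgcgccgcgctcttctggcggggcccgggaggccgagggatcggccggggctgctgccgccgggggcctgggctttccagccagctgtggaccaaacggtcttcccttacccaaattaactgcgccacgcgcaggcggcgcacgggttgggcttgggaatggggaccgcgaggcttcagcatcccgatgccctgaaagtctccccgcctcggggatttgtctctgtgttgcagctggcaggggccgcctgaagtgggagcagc
FN1 held 6 GC boxes, of which some overlap, with 1 TGACGTCA and 1 CCAAT. LAMA5 held 5 GC boxes and ITGB1 3, and ITGAV and FBN1 held none of the 6 motifs. Over all 27305 windows, 44.6% held a GC box, 1.98% TGACGTCA, 35.7% CCAAT, 7.76% AP-1, 12% a TATA box and 7.43% an E box. Of the 33 member windows 18 held a GC box, and FN1's was the 1 with TGACGTCA. A GC box was in 4 of the 8 windows of genes higher with belinostat both with and without AsiDNA, and in 1 of the 2 windows of genes lower in both. A match is a description of letters and not a site of binding.

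Belinostat against DMSO asks what the inhibitor changed in cells without AsiDNA. Of the 32 tested members 19 were called (12 higher and 7 lower), where 57.4% of all tested genes were called in either direction, 29.8% higher and 27.6% lower, so the members' share was near the background. With scaling by library size only the split was 12 higher and 11 lower, where 56.9% of all tested genes were called in either direction. The libraries of the groups did not overlap for 26 members, where this held for 76.6% of all tested genes. By class, 6 integrin α genes were higher and 2 lower, 1 integrin β gene was higher and 2 lower, 4 laminin genes were higher and 1 lower, and 1 matrix glycoprotein was higher and 2 lower. The median log2 fold change was -0.052 over the tested members and 0.061 over all tested genes. Without DMSO 1, 20 of 33 tested members were called, against 55.7% of all tested genes, and without DMSO 2, 25 of 33, against 64.9%.

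The combination against AsiDNA asks the same of cells that also had AsiDNA. It called 16 members (12 higher and 4 lower), against 42.9% of all tested genes in either direction, 21.7% higher and 21.2% lower. The libraries did not overlap for 29 members, against 77% of all tested genes. The 12 higher members were 6 integrin α, 2 integrin β and 3 laminin genes and FN1, and the 4 lower ones were 2 integrin α genes, 1 integrin β gene and FBN1. The median was 0.22 over the tested members and 0.015 over all tested genes. In a fit of only the groups compared, 22 of 31 tested members were called, against 63.1% of all tested genes. Without AsiDNA 2, 10 of 33 members were called, against 26.7% of all tested genes.

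Those comparisons share no library, and their values can be set side by side. Called in both and in the same direction were 13 of the 32 tested members (40.6%), against 34.4% of all tested genes; no member was called in opposite directions, and of all genes called in both 99.5% had the same direction. ITGA1, ITGA7, ITGA11, ITGAV, ITGAX, ITGB1, LAMA4, LAMA5, LAMB2 and FN1 were higher in both, and ITGA2, ITGB3 and FBN1 were lower in both. Over the 32 tested members, 24 (75%) had the same sign, against 79.6% of all tested genes. Pearson's r between the fold changes was 0.86 over the members and 0.81 over all tested genes, given as a description because the genes share the libraries of each comparison.

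**Figure D1:**
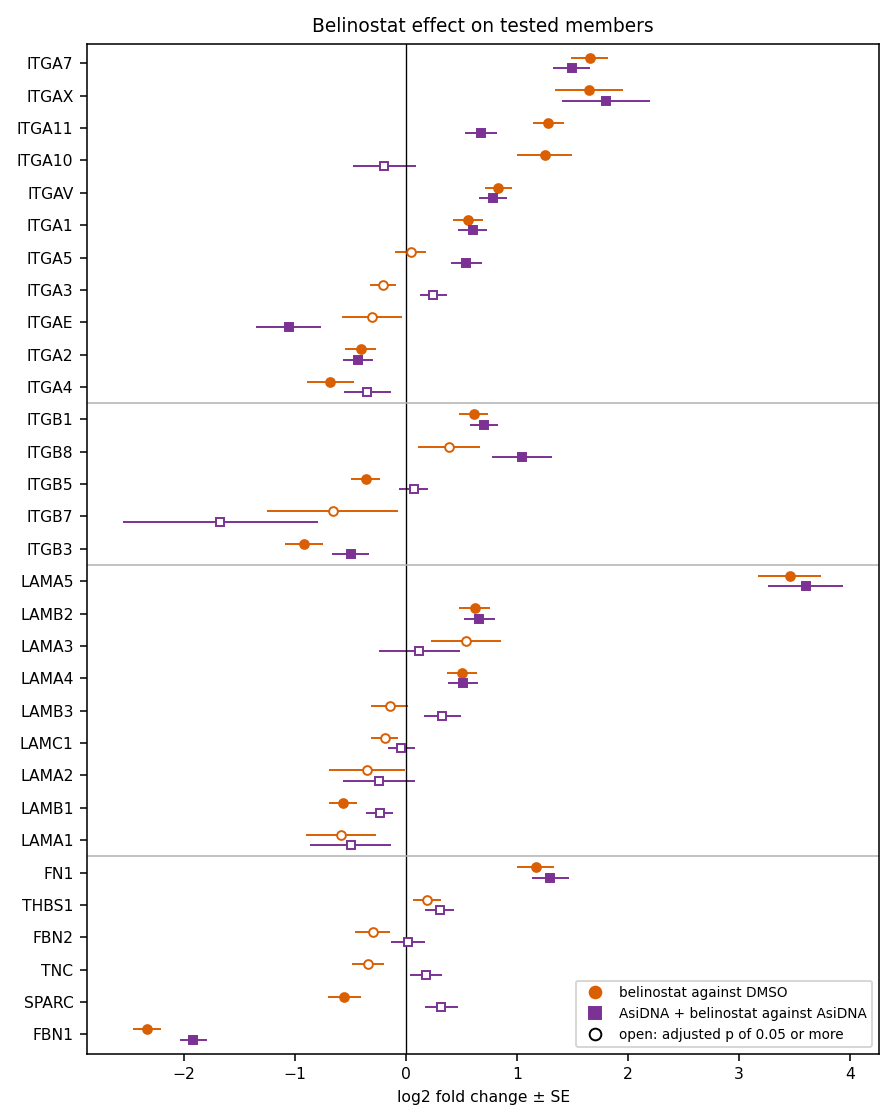
Log2 fold changes ± SE (horizontal axis) of 31 tested members, grouped by class, for belinostat against DMSO (circles) and for the combination against AsiDNA (squares), with open symbols where the adjusted p was 0.05 or more. LAMA5 lies farthest to the right at 3.46 and 3.60, FBN1 farthest to the left at -2.33 and -1.91, and SPARC lies on opposite sides of 0 in the 2 comparisons.

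Of the matrix ligands, FN1 (ENSG00000115414, chr2:215360440-215436172, minus strand) encodes fibronectin, the fibril-forming glycoprotein that α5β1 and αv integrins bind; its gene coordinates and those of the other members are GENCODE v29 on GRCh38. FN1 had 32832 and 32749 CPM in the combination, 33189 and 27767 CPM in belinostat, 12935 and 13656 CPM in AsiDNA and 14031 and 13021 CPM in DMSO. The 4 libraries with belinostat all lay above the 4 without it, with overlap inside each set. FN1 had a log2 fold change of 1.17 ± 0.17 for belinostat against DMSO (adjusted p = 5.24e-05), 1.30 ± 0.17 for the combination against AsiDNA (adjusted p = 3.69e-05) and 1.28 ± 0.17 for the combination against DMSO (adjusted p = 3.82e-05). It ranked 2nd of all genes by its share of counts and took 3.06% and 3.07% of counts in the combination, 3.20% and 2.71% in belinostat, 1.33% and 1.40% in AsiDNA and 1.43% and 1.45% in DMSO. FN1 alone made up 72.6% and 72.2% of the members' counts in the combination, 77.2% and 76.1% in belinostat, 54.2% and 54.7% in AsiDNA and 56.4% and 56.2% in DMSO.

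FBN1 (ENSG00000166147, chr15:48408306-48645849, minus strand) encodes fibrillin-1, the backbone of matrix microfibrils. FBN1 had 480.0 and 479 CPM in the combination, 413 and 391 CPM in belinostat, 1789.5 and 1822 CPM in AsiDNA and 1991 and 2057 CPM in DMSO. No groups overlapped; DMSO was highest, then AsiDNA, the combination and belinostat. FBN1 had a log2 fold change of -2.33 ± 0.13 for belinostat against DMSO (adjusted p = 2.57e-08), -1.91 ± 0.12 for the combination against AsiDNA (adjusted p = 1.93e-07) and -2.08 ± 0.12 for the combination against DMSO (adjusted p = 9.23e-08). FBN2 (ENSG00000138829, chr5:128257909-128659185, minus strand), whose product fibrillin-2 builds microfibrils mainly in development, had 108 and 113 CPM in the combination, 96.0 and 66.2 CPM in belinostat, 103 and 115 CPM in AsiDNA and 104 and 96.6 CPM in DMSO. Both belinostat libraries were below all others, and the other 3 groups lay close together. FBN2 had a log2 fold change of 0.44 ± 0.16 for the combination against belinostat (adjusted p = 0.0383), and -0.30 ± 0.16 for belinostat against DMSO missed the threshold (adjusted p = 0.116). The FBN2 call against belinostat was lost without combination 1, combination 2, belinostat 2, AsiDNA 1 or AsiDNA 2 (values of 0.26 to 0.54) and with scaling by library size only (0.38), and the value was 0.79 without belinostat 1.

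TNC (ENSG00000041982, chr9:115019578-115118257, minus strand) encodes tenascin-C, a large glycoprotein of wounds and tumour stroma that is prominent around glioma vessels. TNC had 3355 and 3284 CPM in the combination, 2478 and 1939 CPM in belinostat, 2826 and 3022 CPM in AsiDNA and 2845 and 2739 CPM in DMSO. The combination libraries were the highest and the belinostat libraries the lowest, while AsiDNA and DMSO overlapped. TNC had a log2 fold change of 0.59 ± 0.15 for the combination against belinostat (adjusted p = 0.00622), and of -0.34 ± 0.15 for belinostat against DMSO (adjusted p = 0.0613) and 0.18 ± 0.15 for the combination against AsiDNA (adjusted p = 0.337), both short of the threshold. SPARC (ENSG00000113140, chr5:151661096-151687165, minus strand), a collagen-binding glycoprotein that loosens cell contacts with the matrix, showed a like order. SPARC had 1054 and 1082 CPM in the combination, 548 and 567 CPM in belinostat, 852 and 858 CPM in AsiDNA and 953 and 684 CPM in DMSO. The combination libraries lay above, and the belinostat libraries below, the AsiDNA and DMSO libraries, and both AsiDNA values fell between the DMSO values. SPARC had a log2 fold change of 0.94 ± 0.15 for the combination against belinostat (adjusted p = 0.000611), -0.55 ± 0.15 for belinostat against DMSO (adjusted p = 0.00605) and 0.38 ± 0.15 for the combination against DMSO (adjusted p = 0.0461). Against AsiDNA the combination was at 0.32 ± 0.15 (adjusted p = 0.0976). The SPARC call of the combination against DMSO was lost without combination 1, combination 2, belinostat 1, belinostat 2, AsiDNA 1, AsiDNA 2 or DMSO 2 (values of 0.16 to 0.39), with scaling by library size only (0.20), with no filter on low counts (0.29) and in a fit of only the groups compared (0.35). Without DMSO 1, SPARC was at -0.31 for belinostat against DMSO and at 0.66 for the combination against DMSO.

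THBS1 (ENSG00000137801, chr15:39581079-39599466, plus strand) encodes thrombospondin-1, which binds CD47 and can release active TGF-β. THBS1 had 126 and 131 CPM in the combination, 122 and 99.8 CPM in belinostat, 99.0 and 109 CPM in AsiDNA and 97.3 and 97.1 CPM in DMSO. The combination libraries were the highest, and belinostat and AsiDNA overlapped above DMSO. THBS1 was higher at 0.40 ± 0.13 for the combination against DMSO (adjusted p = 0.0188). The THBS1 call was lost without combination 1 (0.41) or combination 2 (0.33), with scaling by library size only (0.21), with no filter on low counts (0.31) and in a fit of only the groups compared (0.36). VTN, the gene of the serum glycoprotein vitronectin, had 4 counts in all 8 libraries and was not tested.

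**Figure D2:**
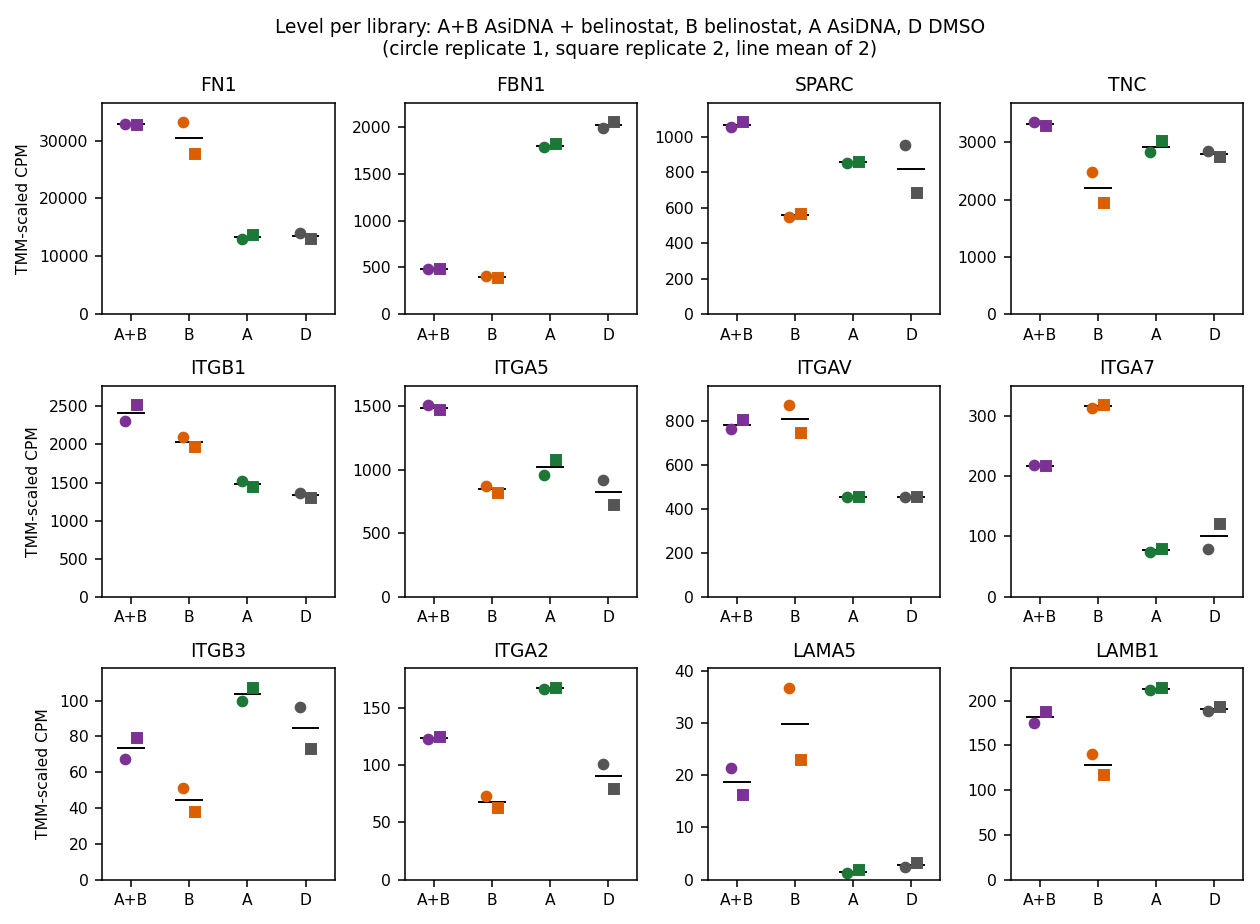
TMM-scaled CPM (vertical axis, from 0) of 12 members in each library of the combination (A+B), belinostat (B), AsiDNA (A) and DMSO (D); circles are replicate 1, squares replicate 2 and lines the mean of 2. FN1, ITGB1, ITGAV, ITGA7 and LAMA5 are higher in both groups with belinostat, FBN1 is lower there, and SPARC, TNC and ITGA5 are highest in the combination.

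Among the laminin α chains, LAMA5 (ENSG00000130702, chr20:62307955-62367312, minus strand), the α chain of many mature basement membranes, had the largest log2 fold change of the tested members for belinostat against DMSO. LAMA5 had 21.4 and 16.1 CPM in the combination, 36.8 and 22.9 CPM in belinostat, 1.33 and 1.75 CPM in AsiDNA and 2.32 and 3.12 CPM in DMSO. No groups overlapped, and the levels without belinostat rested on 23 counts in AsiDNA and 55 in DMSO. LAMA5 had a log2 fold change of 3.46 ± 0.29 for belinostat against DMSO (adjusted p = 5.3e-07), 3.60 ± 0.34 for the combination against AsiDNA (adjusted p = 2.95e-06), 2.77 ± 0.29 for the combination against DMSO (adjusted p = 6.85e-06) and -0.69 ± 0.24 for the combination against belinostat (adjusted p = 0.0319). The LAMA5 call against belinostat was lost without combination 1, combination 2, belinostat 1, AsiDNA 1 or AsiDNA 2 (values of -0.82 to -0.24) and with DESeq2 (-0.66). LAMA5 shares exon bases on the other strand with ADRM1, a proteasome gene at 148 CPM in the combination, 93.5 CPM in belinostat, 161 CPM in AsiDNA and 129 CPM in DMSO, and the sources used here do not say whether the counting used strand. The part of ADRM1 reads in the LAMA5 values was not tested.

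LAMA4 (ENSG00000112769, chr6:112108760-112254939, minus strand) encodes the α4 chain of vessel and mesenchymal basement membranes. LAMA4 had 50.2 and 59.4 CPM in the combination, 45.4 and 48.3 CPM in belinostat, 37.4 and 39.4 CPM in AsiDNA and 34.1 and 31.7 CPM in DMSO. No groups overlapped, and the combination was highest, followed by belinostat, AsiDNA and DMSO. LAMA4 had a log2 fold change of 0.51 ± 0.14 for belinostat against DMSO (adjusted p = 0.00661), 0.52 ± 0.14 for the combination against AsiDNA (adjusted p = 0.00831) and 0.74 ± 0.14 for the combination against DMSO (adjusted p = 0.000626). The LAMA4 call for belinostat against DMSO was lost without belinostat 1 (0.47) or belinostat 2 (0.38), with no filter on low counts (0.35) and in a fit of only the groups compared (0.42), and that for the combination against AsiDNA without combination 2 (0.36), AsiDNA 1 (0.47) or AsiDNA 2 (0.55). The remaining α chains were low. LAMA1, the chain of the earliest embryonic laminin, averaged 2.38 ± 0.0685 CPM in the combination, 3.73 ± 0.957 CPM in belinostat, 3.39 ± 0.352 CPM in AsiDNA and 5.50 ± 0.493 CPM in DMSO (SD, n = 2 each, here and for the other means), and was lower for the combination against DMSO at -1.20 ± 0.34 (adjusted p = 0.00966), a call lost without combination 1 (-1.19) or combination 2 (-1.27). LAMA2, the chain of muscle and nerve sheaths, averaged 3.88 ± 0.414 CPM in the combination, 2.48 ± 0.149 CPM in belinostat, 4.57 ± 0.322 CPM in AsiDNA and 3.18 ± 0.361 CPM in DMSO and was called in none of the 6 tests; 95% intervals of its log2 fold change were -1.09 to 0.38 for belinostat against DMSO and -0.93 to 0.45 for the combination against AsiDNA. LAMA3, the α chain of epidermal laminin-332, averaged 6.25 ± 1.78 CPM in the combination, 11.8 ± 4.92 CPM in belinostat, 5.60 ± 2.16 CPM in AsiDNA and 8.22 ± 1.48 CPM in DMSO. LAMA3 was lower at -0.96 ± 0.34 for the combination against belinostat (adjusted p = 0.037), a call lost without combination 1 (-1.18), combination 2 (-0.62) or belinostat 1 (-0.37) and with DESeq2 (-0.91).

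The β and γ chains of the laminin trimer were more abundant. LAMB2 (ENSG00000172037, chr3:49121114-49133118, minus strand) encodes the β2 chain, known from synapses and kidney filters. LAMB2 had 313 and 313 CPM in the combination, 314 and 305 CPM in belinostat, 186 and 210.0 CPM in AsiDNA and 173 and 229 CPM in DMSO. The 4 libraries with belinostat lay above the 4 without it, with overlap inside each set. LAMB2 had a log2 fold change of 0.62 ± 0.14 for belinostat against DMSO (adjusted p = 0.00178), 0.66 ± 0.14 for the combination against AsiDNA (adjusted p = 0.00177) and 0.64 ± 0.14 for the combination against DMSO (adjusted p = 0.00194). LAMB1 (ENSG00000091136, chr7:107923799-108003255, minus strand), the gene of the more widespread β1 chain, was lower with belinostat alone. LAMB1 had 176 and 187 CPM in the combination, 141 and 117 CPM in belinostat, 212 and 215 CPM in AsiDNA and 189 and 193 CPM in DMSO. No groups overlapped, with AsiDNA highest and belinostat lowest. LAMB1 had a log2 fold change of -0.57 ± 0.12 for belinostat against DMSO (adjusted p = 0.00152) and 0.49 ± 0.12 for the combination against belinostat (adjusted p = 0.00681), and of -0.24 ± 0.12 for the combination against AsiDNA (adjusted p = 0.141), which missed the threshold. The LAMB1 call against belinostat was lost without combination 2 (0.50) or belinostat 2 (0.42). Exons of LAMB1 overlap those of DLD on the other strand, a mitochondrial dehydrogenase gene at 84.6 CPM in the combination, 68.3 CPM in belinostat, 76.8 CPM in AsiDNA and 67.3 CPM in DMSO.

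LAMC1 (ENSG00000135862, chr1:183023460-183145592, plus strand) encodes γ1, the γ chain of most laminins. LAMC1 had 637 and 639 CPM in the combination, 529 and 486 CPM in belinostat, 639 and 674 CPM in AsiDNA and 618 and 542 CPM in DMSO. Belinostat was lowest and AsiDNA highest, and the combination lay just below AsiDNA. LAMC1 had a log2 fold change of 0.33 ± 0.12 for the combination against belinostat (adjusted p = 0.0437), lost without combination 1, combination 2, belinostat 2, AsiDNA 1 or AsiDNA 2 (values of 0.32 to 0.41) and with a replicate block (0.33). LAMB3 (ENSG00000196878, chr1:209614870-209652466, minus strand) encodes the β chain of laminin-332. LAMB3 had 42.0 and 42.5 CPM in the combination, 30.2 and 24.0 CPM in belinostat, 33.9 and 33.3 CPM in AsiDNA and 34.1 and 26.2 CPM in DMSO. The combination was highest, and belinostat and AsiDNA each overlapped DMSO. LAMB3 had a log2 fold change of 0.63 ± 0.17 for the combination against belinostat (adjusted p = 0.0084) and 0.49 ± 0.16 for the combination against DMSO (adjusted p = 0.0235). The LAMB3 call against belinostat was lost without belinostat 2 (0.54), and that against DMSO without combination 1 (0.48), combination 2 (0.44) or DMSO 2 (0.30), with scaling by library size only (0.30), with no filter on low counts (0.39) and in a fit of only the groups compared (0.45). LAMB4 had 3 counts and LAMC3, a γ chain of nerve and retina, 7 counts in all libraries, and neither was tested.

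The fibronectin receptors come first among the integrin α subunits. ITGA5 (ENSG00000161638, chr12:54395261-54419460, minus strand) encodes α5, which pairs with β1 to bind fibronectin. ITGA5 had 1509 and 1465 CPM in the combination, 874 and 819 CPM in belinostat, 961 and 1077 CPM in AsiDNA and 922 and 722 CPM in DMSO. The combination was highest, AsiDNA next, and both belinostat values lay between the DMSO values. ITGA5 had a log2 fold change of 0.81 ± 0.14 for the combination against belinostat (adjusted p = 0.000919), 0.86 ± 0.14 for the combination against DMSO (adjusted p = 0.000256) and 0.55 ± 0.14 for the combination against AsiDNA (adjusted p = 0.0066). For belinostat against DMSO it was 0.042 ± 0.14, with a 95% interval of -0.26 to 0.34 (adjusted p = 0.812). The ITGA5 call against AsiDNA was lost without AsiDNA 1 (0.46). ITGAV (ENSG00000138448, chr2:186590065-186680901, plus strand) encodes αv, the partner of β1, β3, β5, β6 and β8 and a receptor for fibronectin and vitronectin. ITGAV had 759.7 and 802 CPM in the combination, 871 and 745 CPM in belinostat, 452 and 454 CPM in AsiDNA and 454 and 453 CPM in DMSO. The 4 libraries with belinostat lay far above the 4 without it. ITGAV had a log2 fold change of 0.83 ± 0.12 for belinostat against DMSO (adjusted p = 7.47e-05), 0.78 ± 0.12 for the combination against AsiDNA (adjusted p = 0.0002) and 0.78 ± 0.12 for the combination against DMSO (adjusted p = 0.000176). AsiDNA added no detectable difference: the 95% interval was -0.31 to 0.21 for the combination against belinostat and -0.26 to 0.26 for AsiDNA against DMSO. ITGA8, also a fibronectin receptor subunit, had 0 counts in every library, and ITGA2B, the platelet subunit, had 15 counts in all, with the platelet markers PF4, PPBP and GP9 at 0.

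ITGA4 (ENSG00000115232, chr2:181457202-181536187, plus strand), whose product α4 binds VCAM1 and a splice form of fibronectin, had 13.0 and 15.4 CPM in the combination, 12.3 and 8.81 CPM in belinostat, 17.7 and 18.5 CPM in AsiDNA and 19.4 and 14.9 CPM in DMSO. Belinostat was lowest, and the combination and AsiDNA overlapped DMSO. ITGA4 had a log2 fold change of -0.68 ± 0.21 for belinostat against DMSO (adjusted p = 0.0148), lost without belinostat 2 (-0.56) or DMSO 1 (-0.48) and at -1.04 without belinostat 1. The related ITGA9 had 21 counts in all and was not tested.

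The collagen receptors ITGA1, ITGA2, ITGA10 and ITGA11, all partners of β1, did not move together. ITGA1 (ENSG00000213949, chr5:52787896-52959210, plus strand), mainly a receptor for collagen IV, had 87.4 and 86.9 CPM in the combination, 89.2 and 87.7 CPM in belinostat, 63.8 and 50.9 CPM in AsiDNA and 62.1 and 57.9 CPM in DMSO. The 4 libraries with belinostat lay above the 4 without it. ITGA1 had a log2 fold change of 0.56 ± 0.13 for belinostat against DMSO (adjusted p = 0.00266), 0.60 ± 0.13 for the combination against AsiDNA (adjusted p = 0.0026) and 0.54 ± 0.13 for the combination against DMSO (adjusted p = 0.00436). The ITGA1 call against AsiDNA was lost without AsiDNA 2 (0.45). ITGA1 overlaps PELO, a ribosome-rescue gene read from the same strand, at 95.03 CPM in the combination, 65.3 CPM in belinostat, 51.9 CPM in AsiDNA and 53.4 CPM in DMSO, and reads of the pair may have been split or dropped by the counting. ITGA11 (ENSG00000137809, chr15:68296533-68432162, minus strand), a fibroblast receptor for fibrillar collagen, had 37.4 and 36.1 CPM in the combination, 51.3 and 46.4 CPM in belinostat, 23.2 and 22.7 CPM in AsiDNA and 20.7 and 19.5 CPM in DMSO. No groups overlapped, and belinostat was highest. ITGA11 had a log2 fold change of 1.28 ± 0.14 for belinostat against DMSO (adjusted p = 5.17e-06), 0.68 ± 0.14 for the combination against AsiDNA (adjusted p = 0.00175), 0.87 ± 0.14 for the combination against DMSO (adjusted p = 0.000225) and -0.41 ± 0.14 for the combination against belinostat (adjusted p = 0.0261). The ITGA11 call against belinostat was lost without combination 1, combination 2, belinostat 1, belinostat 2, AsiDNA 1 or AsiDNA 2 (values of -0.43 to -0.28), with DESeq2 (-0.39) and with no filter on low counts (-0.35).

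ITGA2 (ENSG00000164171, chr5:52989326-53094779, plus strand), a receptor for fibrillar collagen and laminin, was the member with the smallest p for AsiDNA. ITGA2 had 123 and 125 CPM in the combination, 72.9 and 62.8 CPM in belinostat, 167 and 168 CPM in AsiDNA and 101 and 79.2 CPM in DMSO. No groups overlapped; the order from high to low was AsiDNA, the combination, DMSO and belinostat. ITGA2 had a log2 fold change of 0.87 ± 0.14 for the combination against belinostat (adjusted p = 0.000662), 0.46 ± 0.14 for the combination against DMSO (adjusted p = 0.0139), -0.43 ± 0.14 for the combination against AsiDNA (adjusted p = 0.0201) and -0.41 ± 0.14 for belinostat against DMSO (adjusted p = 0.0229). AsiDNA against DMSO gave 0.89 ± 0.14 (adjusted p = 0.0582), short of the threshold, and the alternative settings gave adjusted p-values between 1.65e-11 and 0.85. The ITGA2 call for belinostat against DMSO was lost without belinostat 2 (-0.39) or DMSO 1 (-0.23), that against AsiDNA without combination 1, combination 2, AsiDNA 1 or AsiDNA 2 (values of -0.47 to -0.42), and that for the combination against DMSO without combination 1 (0.45) or combination 2 (0.41), with scaling by library size only (0.27) and in a fit of only the groups compared (0.42), with 0.29 without DMSO 2. ITGA10, a cartilage collagen receptor, averaged 4.67 ± 1.18 CPM in the combination, 13.1 ± 0.335 CPM in belinostat, 5.42 ± 0.153 CPM in AsiDNA and 5.49 ± 1.05 CPM in DMSO. ITGA10 had a log2 fold change of 1.25 ± 0.25 for belinostat against DMSO (adjusted p = 0.000734) and -1.47 ± 0.26 for the combination against belinostat (adjusted p = 0.00105), and was at -0.19 ± 0.28 for the combination against AsiDNA (adjusted p = 0.617).

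ITGA7 (ENSG00000135424, chr12:55684568-55716043, minus strand), a laminin receptor of muscle, led the laminin-binding integrins in its change. ITGA7 had 218 and 217 CPM in the combination, 313 and 318 CPM in belinostat, 74.9 and 79.3 CPM in AsiDNA and 78.8 and 121 CPM in DMSO. Both belinostat libraries were highest, the combination next, and AsiDNA overlapped DMSO, whose libraries differed by 1.54-fold. ITGA7 had a log2 fold change of 1.66 ± 0.17 for belinostat against DMSO (adjusted p = 2.51e-06), 1.49 ± 0.17 for the combination against AsiDNA (adjusted p = 1.24e-05), 1.12 ± 0.16 for the combination against DMSO (adjusted p = 9.95e-05) and -0.54 ± 0.16 for the combination against belinostat (adjusted p = 0.0162). The ITGA7 call against belinostat was lost without combination 1, combination 2, belinostat 1 or belinostat 2 (values of -0.49 to -0.47). On the other strand its exons overlap those of BLOC1S1, a lysosome biogenesis gene, METTL7B and the readthrough gene BLOC1S1-RDH5. BLOC1S1 was at 22.2 CPM in the combination, 23.2 CPM in belinostat, 25.7 CPM in AsiDNA and 22.7 CPM in DMSO. METTL7B was at 9.43 CPM in the combination, 5.07 CPM in belinostat, 4.41 CPM in AsiDNA and 3.54 CPM in DMSO, and BLOC1S1-RDH5 at 3.24 CPM in the combination, 7.31 CPM in belinostat, 4.44 CPM in AsiDNA and 5.19 CPM in DMSO. The part of their reads in the ITGA7 values was not tested. ITGA3 (ENSG00000005884, chr17:50055968-50090481, plus strand), a receptor for laminin-332 and laminin-511, had 714 and 743 CPM in the combination, 459 and 432 CPM in belinostat, 595 and 632 CPM in AsiDNA and 538 and 490.0 CPM in DMSO. No groups overlapped, and the order was the combination, AsiDNA, DMSO and belinostat from high to low. ITGA3 had a log2 fold change of 0.71 ± 0.12 for the combination against belinostat (adjusted p = 0.000779) and 0.50 ± 0.12 for the combination against DMSO (adjusted p = 0.00346), and was at -0.21 ± 0.12 for belinostat against DMSO (adjusted p = 0.154) and 0.25 ± 0.12 for the combination against AsiDNA (adjusted p = 0.11). The ITGA3 call against DMSO was lost without combination 2 (0.43). ITGA6, the other main laminin receptor subunit, had 7 counts in all and was not tested.

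The leukocyte subunits were low. ITGAX, known from dendritic cells, averaged 8.11 ± 1.51 CPM in the combination, 20.1 ± 4.16 CPM in belinostat, 2.25 ± 0.917 CPM in AsiDNA and 6.41 ± 3.07 CPM in DMSO. ITGAX had a log2 fold change of 1.65 ± 0.31 for belinostat against DMSO (adjusted p = 0.000497), 1.80 ± 0.40 for the combination against AsiDNA (adjusted p = 0.00241) and -1.32 ± 0.31 for the combination against belinostat (adjusted p = 0.00484). The ITGAX call against belinostat was lost without combination 2 (-1.08) or belinostat 1 (-1.03). ITGAE, which pairs with β7 on intraepithelial T cells, averaged 3.92 ± 0.832 CPM in the combination, 5.81 ± 0.412 CPM in belinostat, 8.08 ± 0.503 CPM in AsiDNA and 7.16 ± 1.58 CPM in DMSO. ITGAE had a log2 fold change of -1.06 ± 0.29 for the combination against AsiDNA (adjusted p = 0.00935) and -0.88 ± 0.29 for the combination against DMSO (adjusted p = 0.0206); the first was lost without combination 2 (-0.87) or AsiDNA 2 (-0.99), and the second without combination 2 (-0.71) or DMSO 1 (-0.63), with DESeq2 (-0.88) and in a fit of only the groups compared (-0.92). HASPIN, a mitotic kinase gene inside ITGAE on the other strand, was at 10.7 CPM in the combination, 4.34 CPM in belinostat, 17.7 CPM in AsiDNA and 14.4 CPM in DMSO. ITGAD had 35 counts, ITGAL 13 and ITGAM 38 in all libraries, and none of them was tested. The leukocyte list as a whole summed to 12.3 to 12.8 CPM in the combination, 10.6 to 11.01 CPM in belinostat, 16.2 to 17.3 CPM in AsiDNA and 19.5 to 21.1 CPM in DMSO. CORO1A, higher with belinostat, gave the most counts of the sum in the combination and belinostat, and CSF1R, lower with belinostat, in AsiDNA and DMSO. The part of such cells in the values of these subunits was not tested.

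Of the integrin β subunits, ITGB1 (ENSG00000150093, chr10:32900319-33005792, minus strand) encodes β1, the partner of most α subunits. ITGB1 had 2304 and 2520.3 CPM in the combination, 2100.3 and 1967 CPM in belinostat, 1523 and 1439 CPM in AsiDNA and 1369.7 and 1294 CPM in DMSO. No groups overlapped, and the combination was highest, followed by belinostat, AsiDNA and DMSO. ITGB1 had a log2 fold change of 0.61 ± 0.13 for belinostat against DMSO (adjusted p = 0.00116), 0.70 ± 0.13 for the combination against AsiDNA (adjusted p = 0.000628) and 0.86 ± 0.13 for the combination against DMSO (adjusted p = 0.000121). None of the other tested αv partners was called higher for belinostat against DMSO. ITGB3 (ENSG00000259207, chr17:47253846-47311816, plus strand), whose product β3 makes the vitronectin receptor, had 67.6 and 78.9 CPM in the combination, 51.3 and 37.8 CPM in belinostat, 99.98 and 107 CPM in AsiDNA and 96.2 and 73.0 CPM in DMSO. Belinostat was lowest, AsiDNA highest, and the combination overlapped DMSO. ITGB3 had a log2 fold change of -0.92 ± 0.17 for belinostat against DMSO (adjusted p = 0.000476), -0.50 ± 0.17 for the combination against AsiDNA (adjusted p = 0.0272) and 0.71 ± 0.17 for the combination against belinostat (adjusted p = 0.00558). The ITGB3 call against AsiDNA was lost without combination 1 (-0.40), AsiDNA 1 (-0.55) or AsiDNA 2 (-0.45), and that against belinostat without combination 2 (0.64) or belinostat 2 (0.57).

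ITGB5 (ENSG00000082781, chr3:124761948-124901418, minus strand), another vitronectin receptor subunit, had 126 and 124 CPM in the combination, 75.4 and 74.2 CPM in belinostat, 117 and 120.3 CPM in AsiDNA and 108 and 84.3 CPM in DMSO. No groups overlapped, with the combination highest and belinostat lowest. ITGB5 had a log2 fold change of 0.74 ± 0.13 for the combination against belinostat (adjusted p = 0.00115), 0.38 ± 0.13 for the combination against DMSO (adjusted p = 0.0306) and -0.36 ± 0.13 for belinostat against DMSO (adjusted p = 0.0329). The ITGB5 call for belinostat against DMSO was lost without belinostat 1, belinostat 2, AsiDNA 1, AsiDNA 2 or DMSO 1 (values of -0.46 to -0.18) and in a fit of only the groups compared (-0.45), with -0.56 without DMSO 2, and that for the combination against DMSO without combination 1, combination 2, belinostat 1, belinostat 2, AsiDNA 1, AsiDNA 2 or DMSO 2 (values of 0.20 to 0.38), with scaling by library size only (0.19), with no filter on low counts (0.28) and in a fit of only the groups compared (0.34), with 0.58 without DMSO 1. ITGB8 (ENSG00000105855, chr7:20330702-20415754, plus strand), which with αv releases latent TGF-β, had 17.5 and 18.2 CPM in the combination, 9.62 and 9.99 CPM in belinostat, 10.0 and 7.13 CPM in AsiDNA and 9.70 and 5.26 CPM in DMSO. The combination was highest, and the other 3 groups overlapped. ITGB8 had a log2 fold change of 0.87 ± 0.27 for the combination against belinostat (adjusted p = 0.0188), 1.05 ± 0.27 for the combination against AsiDNA (adjusted p = 0.00632) and 1.26 ± 0.26 for the combination against DMSO (adjusted p = 0.00155). The ITGB8 call against belinostat was lost without combination 2 (0.89), belinostat 1 (0.89) or belinostat 2 (0.95), and that against AsiDNA without AsiDNA 2 (0.83). ITGB7, a lymphocyte subunit, averaged 0.340 ± 0.244 CPM in the combination, 1.51 ± 0.692 CPM in belinostat, 1.161 ± 0.407 CPM in AsiDNA and 2.46 ± 1.76 CPM in DMSO. ITGB7 had a log2 fold change of -2.73 ± 0.77 for the combination against DMSO (adjusted p = 0.0102), which rests on 5 counts in the combination and 50 in DMSO and was lost without combination 1 (-2.26) or DMSO 2 (-1.71). Exons of ITGB7 overlap those of ZNF740 on the other strand, at 47.5 CPM in the combination, 65.9 CPM in belinostat, 34.0 CPM in AsiDNA and 35.9 CPM in DMSO. ITGB2, the leukocyte β subunit, had 8 counts, ITGB4, the hemidesmosome subunit, 9 and ITGB6, an epithelial αv partner, 3, and none was tested.

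AsiDNA against DMSO asks what AsiDNA changed without belinostat. None of the 32 tested members was called, where 0.0204% of all tested genes were, 3 in number. The libraries did not overlap for 18 members, against 39.4% of all tested genes. At an unadjusted p under 0.05 there were 6 members, against 11.4% of all tested genes, and DESeq2 called 1, ITGA2, against 0.224% of all tested genes. The 6 were ITGA2, ITGA5 and ITGB5 with positive and ITGA7, ITGAX and LAMA1 with negative values. The 95% interval of the log2 fold change was -0.38 to 0.33 for FN1, -0.42 to 0.092 for FBN1, -0.12 to 0.43 for ITGB1 and -0.25 to 0.38 for TNC. Without DMSO 1, 12 of 33 tested members were called, against 31.6% of all tested genes, and without DMSO 2, 1 was, against 0.401%; ITGA2 was in both. The single DMSO library is then assumed to vary like the other groups.

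The combination against belinostat asks what AsiDNA changed in cells that also had belinostat. It called 19 members (12 higher and 7 lower), against 43.4% of all tested genes in either direction, 22% higher and 21.4% lower, and its median was 0.24 over the tested members and -0.0076 over all tested genes. The libraries did not overlap for 29 members, against 77.3% of all tested genes. Of 4 reference genes read in the same comparison, ACTB was higher at 1.54 ± 0.19 (adjusted p = 0.000271) and GAPDH at 0.78 ± 0.17 (adjusted p = 0.0029). TBP was lower at -0.67 ± 0.17 (adjusted p = 0.00674), and HPRT1 was at 0.082 ± 0.20 (adjusted p = 0.765). Whether the members' differences share an origin with these was not tested. The 12 higher members were ITGA2, ITGA3, ITGA5, ITGB3, ITGB5, ITGB8, LAMB1, LAMB3, LAMC1, SPARC, TNC and FBN2, and the 7 lower ones included ITGA7, ITGA10, ITGA11, ITGAX, LAMA3 and LAMA5. The count was 12 without combination 1, 8 without combination 2, 12 without belinostat 1 and 10 without belinostat 2, where 29.5%, 20.1%, 27.4% and 24.1% of all tested genes were called in that order. The combination against DMSO called 21 members (17 higher and 4 lower), against 48.1% of all tested genes in either direction, 24.3% higher and 23.7% lower, and its median was 0.38 over the tested members and -0.013 over all tested genes. The libraries did not overlap for 26 members, against 70.9% of all tested genes. The count of called members was 14 without combination 1, 13 without combination 2, 22 without DMSO 1 and 19 without DMSO 2, where 33.2%, 31.3%, 56.3% and 49.3% of all tested genes were called in that order. These comparisons share the combination libraries, and each shares its other group with a comparison above, so they are not independent of one another.

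**Figure D3:**
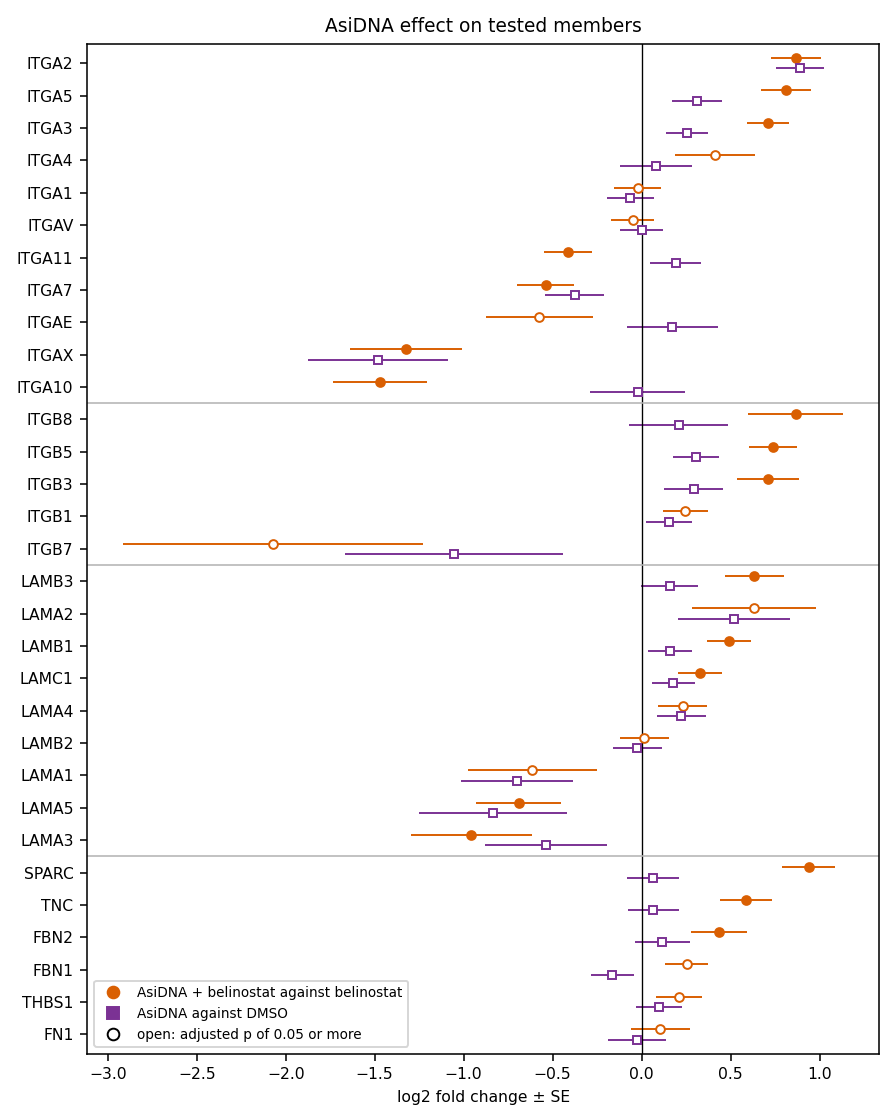
Log2 fold changes ± SE (horizontal axis) of 31 tested members, grouped by class, for the combination against belinostat (circles) and for AsiDNA against DMSO (squares), with open symbols where the adjusted p was 0.05 or more. All squares are open, and ITGA2 is at 0.87 and 0.89 in the 2 comparisons while SPARC is at 0.94 and 0.063.

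The interaction asks whether the belinostat effect differed between cells with and without AsiDNA. None of the 32 members was called, where 0.00678% of all tested genes were, 1 in number. At an unadjusted p under 0.05 there were 9 members, against 21.7% of all tested genes, and DESeq2 called 1, SPARC, against 4.4% of all tested genes. SPARC was at 0.87 ± 0.21 with a 95% interval of 0.42 to 1.33 (adjusted p = 0.0726), as both belinostat libraries were below both DMSO libraries and both combination libraries above both AsiDNA libraries. ITGA10 was at -1.45 ± 0.38 with an interval of -2.26 to -0.64 (adjusted p = 0.0835). FN1 was at 0.13 ± 0.23 with an interval of -0.37 to 0.63 and LAMA5 at 0.14 ± 0.47 with one of -0.86 to 1.15. Without DMSO 1, 7 of 33 tested members were called, against 6.51% of all tested genes, and without DMSO 2, 14 of 33, against 34.6%, and all 7 were among the 14. ITGA3, ITGA10, ITGA11, FBN1, SPARC and TNC were called in both.

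**Figure D4:**
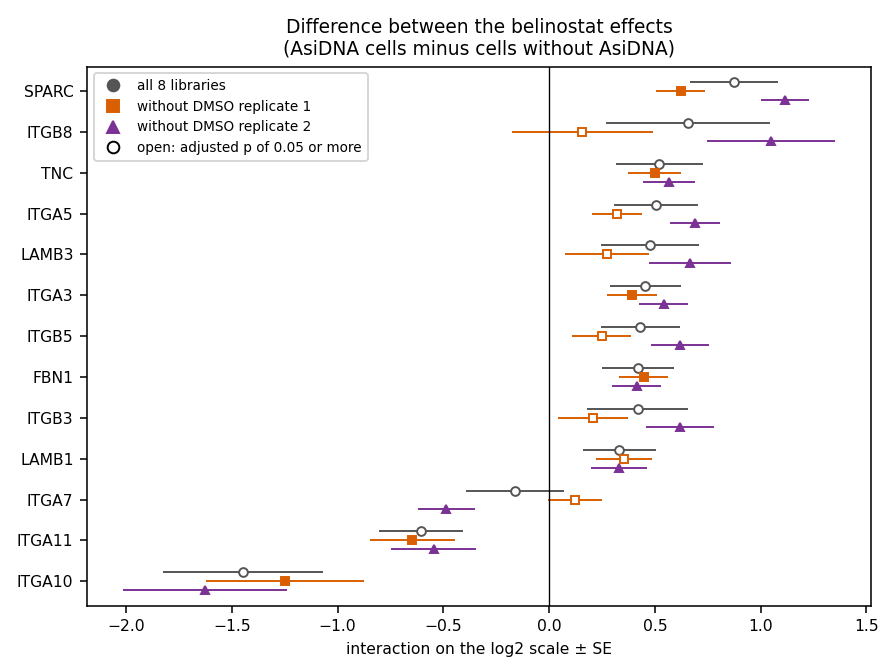
The interaction on the log2 scale ± SE (horizontal axis: belinostat effect in AsiDNA cells minus that in cells without AsiDNA) for 13 members called with a DMSO library left out, with all 8 libraries (circles), without DMSO 1 (squares) and without DMSO 2 (triangles). All circles are open, since no adjusted p was under 0.05 with all 8 libraries, and ITGA7 lies on either side of 0 depending on the DMSO library left out.

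The subunit make-up was compared per length, as each subunit's share of its family's CPM per kilobase of exon, averaged over the 2 libraries. ITGA5 made up 45.8% of the α subunits in the combination, 33.8% in belinostat, 45.4% in AsiDNA and 42.6% in DMSO. ITGAV made up 22.2% in the combination, 29.7% in belinostat, 18.7% in AsiDNA and 21.8% in DMSO, and ITGA7 7.95% in the combination, 15.0% in belinostat, 4.09% in AsiDNA and 6.27% in DMSO. ITGA3 held 17.4% in the combination, 13.8% in belinostat, 21.2% in AsiDNA and 20.7% in DMSO. Thus α5 led in all 4 groups, and αv and α7 had their largest shares in belinostat. ITGB1 was 91.5% of the β subunits in the combination, 93.7% in belinostat, 85.2% in AsiDNA and 86.3% in DMSO, while ITGB3 was 3.79% in the combination, 2.79% in belinostat, 8.16% in AsiDNA and 7.46% in DMSO.

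Among laminin α chains on that scale, LAMA4 led everywhere with 67.6% in the combination, 55.1% in belinostat, 74.4% in AsiDNA and 66.9% in DMSO. LAMA5 made up 18.8% in the combination, 27.8% in belinostat, 2.41% in AsiDNA and 4.49% in DMSO. LAMB2 made up 59.3% of the β chains in the combination, 67.7% in belinostat, 46.3% in AsiDNA and 49.3% in DMSO, and LAMB1 28.96% in the combination, 23.6% in belinostat, 42.2% in AsiDNA and 39.7% in DMSO. Shares sum to a fixed whole, so a larger share of 1 chain lowers the others, and no test was run on them.

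**Figure D5:**
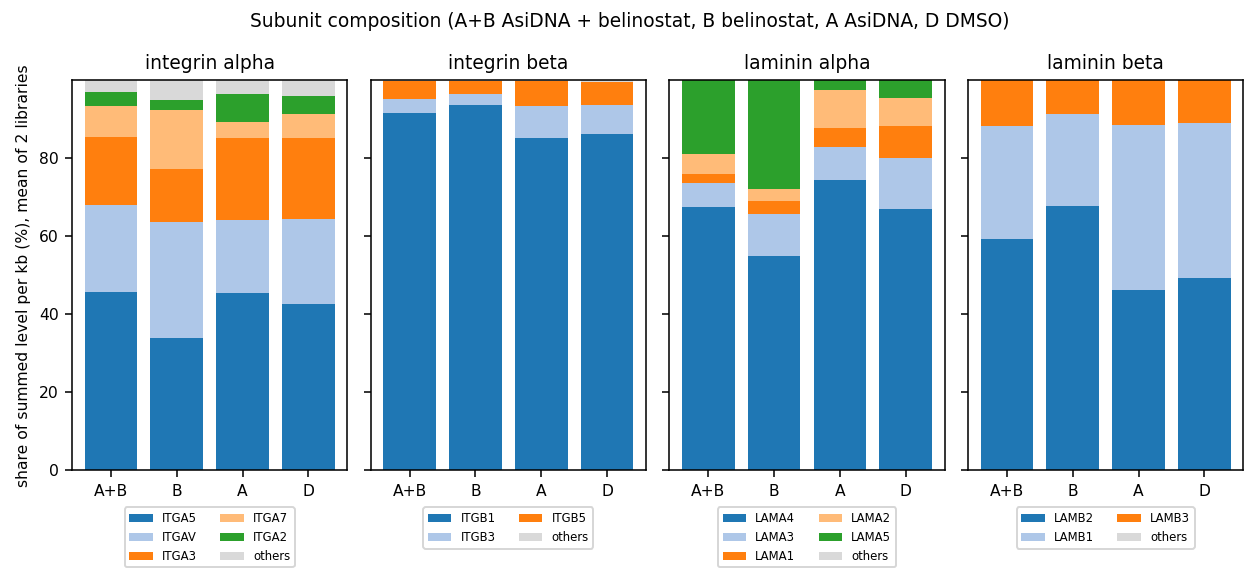
Share (%) of each subunit in its family's summed CPM per kilobase of exon (stacked bars from 0 to 100, mean of 2 libraries) for the combination (A+B), belinostat (B), AsiDNA (A) and DMSO (D), with colours keyed separately in each panel. ITGB1 fills most of its panel, and the LAMA5 and LAMB2 parts are larger in both groups with belinostat.

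Genes that work with integrins were read as lists, each beside the medians of all tested genes given above and their shares of calls. Those shares were 29.8% higher and 27.6% lower for belinostat against DMSO, 21.7% higher and 21.2% lower for the combination against AsiDNA and 22% higher and 21.4% lower for the combination against belinostat; no list was tested against them. Of 42 focal adhesion adaptors and kinases 39 were tested: 10 higher and 16 lower for belinostat against DMSO (median -0.20), 11 higher and 10 lower for the combination against AsiDNA (median 0.055) and 18 higher and 5 lower for the combination against belinostat (median 0.27). TES, an adaptor that binds zyxin, was higher at 4.24 ± 0.17 for belinostat against DMSO (adjusted p = 2.25e-09) and 4.33 ± 0.17 for the combination against AsiDNA (adjusted p = 3.27e-09). TLN2, a talin that links integrin tails to actin, was higher at 2.42 ± 0.21 for belinostat against DMSO (adjusted p = 8.33e-07) and 2.28 ± 0.22 for the combination against AsiDNA (adjusted p = 3.42e-06). PTK2B, a relative of focal adhesion kinase, was higher at 3.23 ± 0.22 for belinostat against DMSO (adjusted p = 1.18e-07). SRC, a kinase that acts downstream of integrins, was lower at -1.78 ± 0.16 for belinostat against DMSO (adjusted p = 8.72e-07) and -1.73 ± 0.16 for the combination against AsiDNA (adjusted p = 2.59e-06).

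Of 30 basement membrane partners and other laminin receptors 20 were tested, with 7 higher and 6 lower for belinostat against DMSO (median 0.25) and 8 higher and 6 lower for the combination against AsiDNA (median 0.032). COL4A5, a collagen IV chain, was higher at 2.32 ± 0.15 for belinostat against DMSO (adjusted p = 9.09e-08) and 1.164 ± 0.15 for the combination against AsiDNA (adjusted p = 4.91e-05). COL15A1, a collagen found next to basement membranes, was higher at 0.89 ± 0.12 for belinostat against DMSO (adjusted p = 4.23e-05). DAG1, the precursor of the laminin receptor dystroglycan, was lower at -1.36 ± 0.18 for belinostat against DMSO (adjusted p = 2.46e-05). SGCB, a sarcoglycan of the same complex, was lower at -1.62 ± 0.17 for belinostat against DMSO (adjusted p = 3.49e-06) and -1.06 ± 0.16 for the combination against AsiDNA (adjusted p = 0.000175). AGRN, whose product agrin links laminin to dystroglycan, was higher at 1.00 ± 0.13 for the combination against AsiDNA (adjusted p = 3.44e-05).

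Of 61 other matrix glycoproteins 28 were tested, with 9 higher and 8 lower for belinostat against DMSO (median 0.11) and 9 higher and 6 lower for the combination against AsiDNA (median -0.034). CCN2, a matricellular protein induced by TGF-β, was higher at 2.46 ± 0.13 for belinostat against DMSO (adjusted p = 2.69e-08) and 3.05 ± 0.15 for the combination against AsiDNA (adjusted p = 1.9e-08). CCN4, of the same family, was higher at 1.58 ± 0.16 for belinostat against DMSO (adjusted p = 2.55e-06) and 1.71 ± 0.16 for the combination against AsiDNA (adjusted p = 2.95e-06). TNXB, a tenascin, was lower at -2.68 ± 0.24 for belinostat against DMSO (adjusted p = 1.07e-06) and -2.94 ± 0.28 for the combination against AsiDNA (adjusted p = 2.81e-06). SMOC1, a relative of SPARC, was lower at -1.34 ± 0.12 for belinostat against DMSO (adjusted p = 9.38e-07). For AsiDNA against DMSO, 2 of the 3 genes called in the whole table were in this list. CCN2 was lower at -1.23 ± 0.15 for AsiDNA against DMSO (adjusted p = 0.017) and CCN1 was lower at -1.12 ± 0.16 for AsiDNA against DMSO (adjusted p = 0.0455). The CCN2 call was lost without combination 1, combination 2, AsiDNA 1 or AsiDNA 2 (values of -1.30 to -1.14) and in a fit of only the groups compared (-1.27), and the CCN1 call without combination 1, combination 2, belinostat 1, belinostat 2, AsiDNA 1 or AsiDNA 2 (values of -1.14 to -1.10), with scaling by library size only (-1.18) and in a fit of only the groups compared (-1.159).

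Integrins with the αv subunit also release TGF-β from its latent store. Of 9 genes of that store, its ligands and its receptors 8 were tested, with 3 higher and 2 lower for belinostat against DMSO (median 0.43) and 3 higher and 1 lower for the combination against AsiDNA (median 0.66). TGFB2, a ligand, was higher at 2.03 ± 0.16 for belinostat against DMSO (adjusted p = 4.48e-07) and 2.06 ± 0.17 for the combination against AsiDNA (adjusted p = 9.57e-07). The receptor TGFBR1 was higher at 1.66 ± 0.17 for belinostat against DMSO (adjusted p = 3.9e-06) and 1.83 ± 0.17 for the combination against AsiDNA (adjusted p = 3.4e-06), and the receptor TGFBR2 was higher at 1.26 ± 0.13 for belinostat against DMSO (adjusted p = 2.76e-06) and 1.46 ± 0.13 for the combination against AsiDNA (adjusted p = 1.59e-06). LTBP1, which anchors latent TGF-β in the matrix, was lower at -0.73 ± 0.13 for belinostat against DMSO (adjusted p = 0.000252).

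Of 25 other adhesion receptors 17 were tested, with 5 higher and 6 lower for belinostat against DMSO (median 0.12), 8 higher and 4 lower for the combination against AsiDNA (median 0.66) and 11 higher and 0 lower for the combination against belinostat (median 0.54). SDC1, a syndecan, was lower at -2.14 ± 0.20 for belinostat against DMSO (adjusted p = 1.2e-06) and -1.57 ± 0.19 for the combination against AsiDNA (adjusted p = 2.13e-05). The collagen receptor gene DDR1 was higher at 1.34 ± 0.15 for belinostat against DMSO (adjusted p = 6.8e-06) and 1.501 ± 0.15 for the combination against AsiDNA (adjusted p = 4.61e-06). The cadherin genes CDH2 and CDH13 were lower too: CDH2 was lower at -1.18 ± 0.17 for belinostat against DMSO (adjusted p = 4.67e-05), and CDH13 was lower at -0.86 ± 0.11 for belinostat against DMSO (adjusted p = 3.02e-05). SDC4, a syndecan of focal adhesions, was higher at 1.87 ± 0.20 for the combination against AsiDNA (adjusted p = 8.91e-06).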

How the data were processed

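RNA from 8 libraries of U87 cells was made with a Roche kit, and libraries came from a stranded total RNA kit with removal of ribosomal RNA, per the labels' protocols. The deposited values are raw counts per gene. The submitters' processing notes name cutadapt 1.16, STAR 2.7.0, featureCounts 1.6.3 and GRCh38, while neither the annotation release nor the strand setting is given there. Names were found for 58876 identifiers, and 8 had none; coordinates are GENCODE v29 and promoters RefSeq.

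Counts were filtered with filterByExpr, scaled by TMM and fitted for all 8 libraries in 1 model of the 4 groups with edgeR 4.0.16 (R 4.3.3, limma 3.58.1), with 4 residual degrees of freedom, 9.56 prior degrees of freedom and a common dispersion of 0.0140. The 5 differences between groups and the interaction were tested over 14741 genes. The steps were run on simulated counts drawn with the same spread in every group. That run does not cover the wider spread between the DMSO libraries.

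Library totals were 6057394 to 9699637 counts, and the SEs depend on the spread between libraries as well as on depth. Members with a mean of at least 10 CPM and a call in any of the 6 tests are given library by library, other tested members by means and untested ones by summed counts; 1 tested member is counted in the totals and is otherwise not reported here. From each list, up to 4 called genes with a mean of at least 10 CPM were named by smallest adjusted p for belinostat against DMSO, and up to 3 for the combination against AsiDNA and for AsiDNA against DMSO. Members and lists were chosen with earlier results of these data known.

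Alternatives were RLE size factors, scaling by library size, DESeq2 1.42.0, other filters, a fit of only the groups compared, a replicate block, protein-coding genes only, omission of the 10 most abundant genes, stricter thresholds and omission of each library; those for the list genes were added after seeing the data.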

Additional observations from a re-analysis of the deposited data

How the results depend on the processing

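In the settings tried for single genes, no called fold change of a member or a named list gene changed sign. Marker and reference genes were not checked in this way. Single-gene values were not read with protein-coding genes only or without the 10 most abundant genes. When a change of at least 2-fold was also required, the members called numbered 7 and not 19 for belinostat against DMSO, 7 and not 16 for the combination against AsiDNA, 2 and not 19 for the combination against belinostat and 7 and not 21 for the combination against DMSO, where 30.3%, 18.8%, 15.5% and 22% of all tested genes were called in that order. The number was 11 for the combination against belinostat at an adjusted p under 0.01, against 25.8% of all tested genes. A fit of only the groups compared called 16 members for belinostat against DMSO and 22 for the combination against AsiDNA. It called 21 for the combination against belinostat and 15 for the combination against DMSO. Of all tested genes 47.4%, 63.1%, 57.5% and 40.8% were called in that order. For AsiDNA against DMSO, 0 members became 1 with DESeq2, 2 with no filter on low counts, 1 with a filter of 1 CPM in 2 libraries and 1 with protein-coding genes only. Of all tested genes 0.224%, 1.69%, 0.0262% and 0.0332% were called in that order. For the interaction, 0 became 1 with scaling by library size only, 1 with DESeq2, 6 with no filter, 1 with the 1 CPM filter and 1 without the 10 most abundant genes. There 1.07%, 4.4%, 5.02%, 2.3% and 2.6% of all tested genes were called in that order. Omission of single libraries gave 15 to 25 members for belinostat against DMSO, 0 to 12 for AsiDNA against DMSO, 10 to 22 for the combination against AsiDNA, 8 to 25 for the combination against belinostat, 13 to 22 for the combination against DMSO and 0 to 14 for the interaction. The share of all tested genes called also rose and fell with the library left out, so these ranges are not particular to the members. Among the fits with 1 library left out, members and all tested genes alike had their most calls without a DMSO library. This held in every comparison, also in those that do not involve DMSO. Each of these fits held 1 library fewer, whichever was left out, and the cause of the difference was not tested. The counts over every setting, given next, have no counterpart here for all tested genes. Called in every setting tried for single genes were 14 of 19 members for belinostat against DMSO, 9 of 16 for the combination against AsiDNA, 7 of 19 for the combination against belinostat and 12 of 21 for the combination against DMSO.

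Over all genes, the 3 calls for AsiDNA against DMSO became 4955 without DMSO 1, 62 without DMSO 2, 520 with no filter and 33 with DESeq2. Likewise the 1 call of the interaction became 1020 without DMSO 1, 5358 without DMSO 2, 1549 with no filter and 649 with DESeq2. Scaling by library size only moved the median of all genes to -0.076 for belinostat against DMSO, -0.12 for the combination against AsiDNA and -0.20 for the combination against DMSO.

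The labels do not say whether replicate numbers pair the libraries. Deviations of same-numbered libraries correlated at 0.21 for belinostat and DMSO, -0.37 for the combination and DMSO and between -0.050 and 0.015 for the other 4 pairs of groups. These values do not decide whether libraries were paired. With a replicate block, 19 members were called for belinostat against DMSO, 16 for the combination against AsiDNA, 18 for the combination against belinostat, 21 for the combination against DMSO, 1 for AsiDNA against DMSO and 0 for the interaction. Of all tested genes 56.8%, 42.2%, 43.1%, 47.3%, 0.0339% and 0.129% were called in that order. With 2 libraries a group, members at a few counts, such as ITGB7 and LAMA5 without belinostat, are limited by depth.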
